A study of Rattus norvegicus with 18 samples.

Results

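The 41 collagen genes of the rat transcriptome were taken from a table of 30560 genes, as every entry whose symbol was Col, a number, a and a number, with Col11a2 set aside. They comprised 10 genes of the fibrillar class, 4 of basement membrane type IV collagen, 6 of the beaded filament class (type VI), 9 of the FACIT class (fibril-associated collagens with interrupted triple helices), 2 multiplexins, 4 of the network and anchoring class, 4 transmembrane collagens and 2 others. No entry carried the symbol Col4a4, Col4a5 or Col21a1, and these genes were not analysed here. The measurements were RNA-seq of the tibialis anterior, a fast-twitch muscle of the lower leg, in 18 libraries from rats. The 9-month arm held 6 p16-null DMD rats (labelled dKO), which combine the DMD genotype with a loss of the cell cycle inhibitor p16, 3 DMD rats, in which Duchenne muscular dystrophy is modelled, and 3 wild-type (WT) rats. The age arm held 3 WT rats at 3 months and 3 at 18 months. All libraries were made from sections of frozen muscle. The labels used here do not give the mutation in Dmd or Cdkn2a, the sex, or the strain. The study's design text counts n in rats, so each library was read as 1 rat.

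Collagens are secreted proteins whose chains wind into a rod-like helix. Fibrillar collagens form the load-bearing cables of tendon, skin and scar, type IV collagen forms the sheet-like mesh of basement membranes around each muscle fibre and capillary, and type VI collagen forms fine filaments that link the 2. FACITs sit on the surface of fibrils, and transmembrane collagens span the plasma membrane of cells. In muscle most collagen is made by fibroblasts and fibro-adipogenic progenitors, and its build-up between fibres is the fibrosis for which dystrophic muscle is known.

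Libraries held 9.61 M to 21.99 M estimated counts. Levels of a gene are given as CPM, estimated counts relative to the TMM-scaled size of the library (scaled over all 18 libraries), and levels of different genes are compared only in TPM, which corrects for transcript length. The values of a group of 3 libraries stand in the order of replicates 1, 2 and 3, and p16-null DMD is given by its lowest, median and highest of 6 libraries. Changes between groups are log2 fold changes ± SE throughout. Dmd was at 30.9 to 54.0 CPM in p16-null DMD and 31.4 to 44.3 CPM in DMD, against 114 to 167 CPM in WT of 9 months. Cdkn2a was at 10.1 to 15.3 CPM in p16-null DMD and 10.7 to 19.4 CPM in DMD, against 0 to 0.184 CPM in WT, and since a count per gene pools all its transcripts, it does not check the loss of p16. Skeletal muscle markers were abundant in all libraries, with Acta1 at no less than 9509 CPM in p16-null DMD, 11219 CPM in DMD and 19651 CPM in WT of any age.

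The collagen genes together took 0.534 ± 0.148% of all TPM in p16-null DMD (SD, n = 6) and 0.458 ± 0.144% in DMD (n = 3), against 0.0609 ± 0.00801% in WT of 9 months (n = 3). In WT the share was 0.151 ± 0.0623% at 3 months, 0.0609% at 9 months and 0.0779 ± 0.00876% at 18 months (n = 3 each). Fibrillar genes were the 3 most abundant in TPM in p16-null DMD, DMD and WT of 3 and 9 months. In WT of 18 months type VI and type IV chains ranked above Col1a1 (51.9 TPM). These were Col6a2 (79.6 TPM), Col4a1 (75.2 TPM), Col6a1 (66.8 TPM) and, by little, Col4a2 (52.3 TPM). Col3a1, the chain of type III collagen of distensible tissue, averaged 1667 TPM in p16-null DMD, 1342 TPM in DMD and 161 TPM in WT of 9 months. The chains of type I collagen, the main collagen of tendon and scar, came next, with Col1a2 at 910.2 TPM in p16-null DMD, 727 TPM in DMD and 90.1 TPM in WT of 9 months, and Col1a1 at 857 TPM in p16-null DMD, 653 TPM in DMD and 60.6 TPM in WT. Fibrillar genes supplied 67.4 ± 4.97% (SD) of collagen TPM in p16-null DMD and 62.2 ± 6.53% in DMD, against 56.4 ± 0.913% in WT of 9 months. In WT their share was 73.2 ± 6.16% at 3 months, 56.4% at 9 months and 47.2 ± 1.25% at 18 months. Type IV genes supplied 6.85 ± 1.68% in p16-null DMD and 7.92 ± 2.05% in DMD, against 12.2 ± 0.395% in WT of 9 months. In WT their share was 7.59 ± 2.79% at 3 months, 12.2% at 9 months and 16.8 ± 1.05% at 18 months. Type VI genes supplied 18.6 ± 1.93% in p16-null DMD, 22.2 ± 3.97% in DMD and 20.2 ± 0.627% in WT of 9 months. The heat map of all members shows these classes by library.

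**Figure D1:**
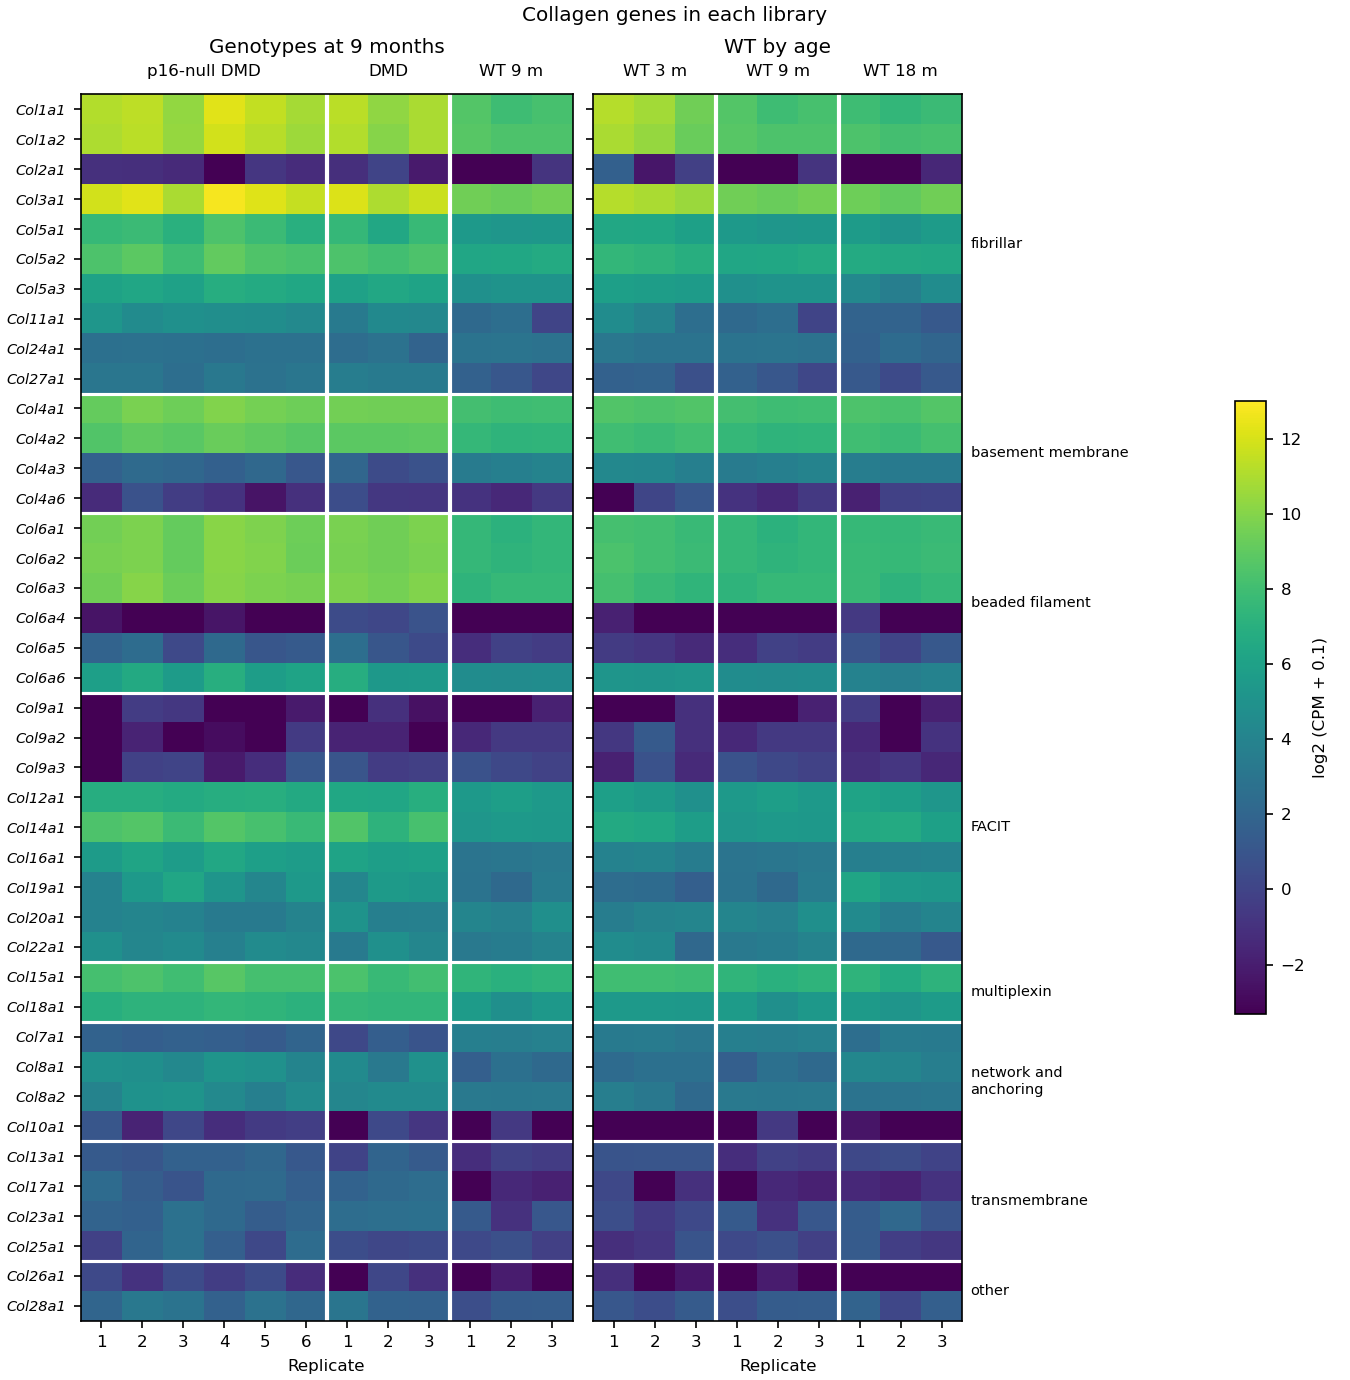
Level of each of the 41 collagen genes (vertical, by class) in each library (horizontal, by replicate) as log2 (CPM + 0.1), with the 9-month genotypes on the left and WT by age on the right; the 3 WT libraries of 9 months appear in both panels. Col1a1, Col1a2 and Col3a1 are brightest in p16-null DMD, DMD and WT of 3 months, and Col4a3 and Col7a1 are darker in p16-null DMD and DMD than in WT of 9 months.

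Most collagen genes rose in both dystrophic genotypes at 9 months, and 2 fell. A filter on low counts left 38 members, without Col2a1, Col9a1 and Col9a2. In p16-null DMD against WT, 30 rose and 2 fell at an adjusted p under 0.05 in edgeR's quasi-likelihood test, with a median log2 fold change of 2.04, while 50.2% of all 14801 genes tested were called (27.5% higher and 22.7% lower) with an all-gene median of 0.11. In DMD against WT, 27 rose and 2 fell with a median of 1.93, while 48.3% of all genes were called (26.4% higher and 21.8% lower) with a median of 0.11. Both comparisons use the same 3 WT libraries. The filter keeps a gene that is expressed in 1 group only, so these counts are over tested members.

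Scaling matters to the counts over all genes. When libraries were scaled by their totals in place of TMM, the median over all genes was 0.72 in p16-null DMD and 0.76 in DMD against WT, with 8071 genes higher and 1251 lower in p16-null DMD (4073 and 3359 with TMM) and 7691 higher and 1240 lower in DMD (3914 and 3228 with TMM). Of the collagen genes, 30 were then higher and 2 lower in each genotype, and no called member changed direction under any alternative tried.

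**Figure D2:**
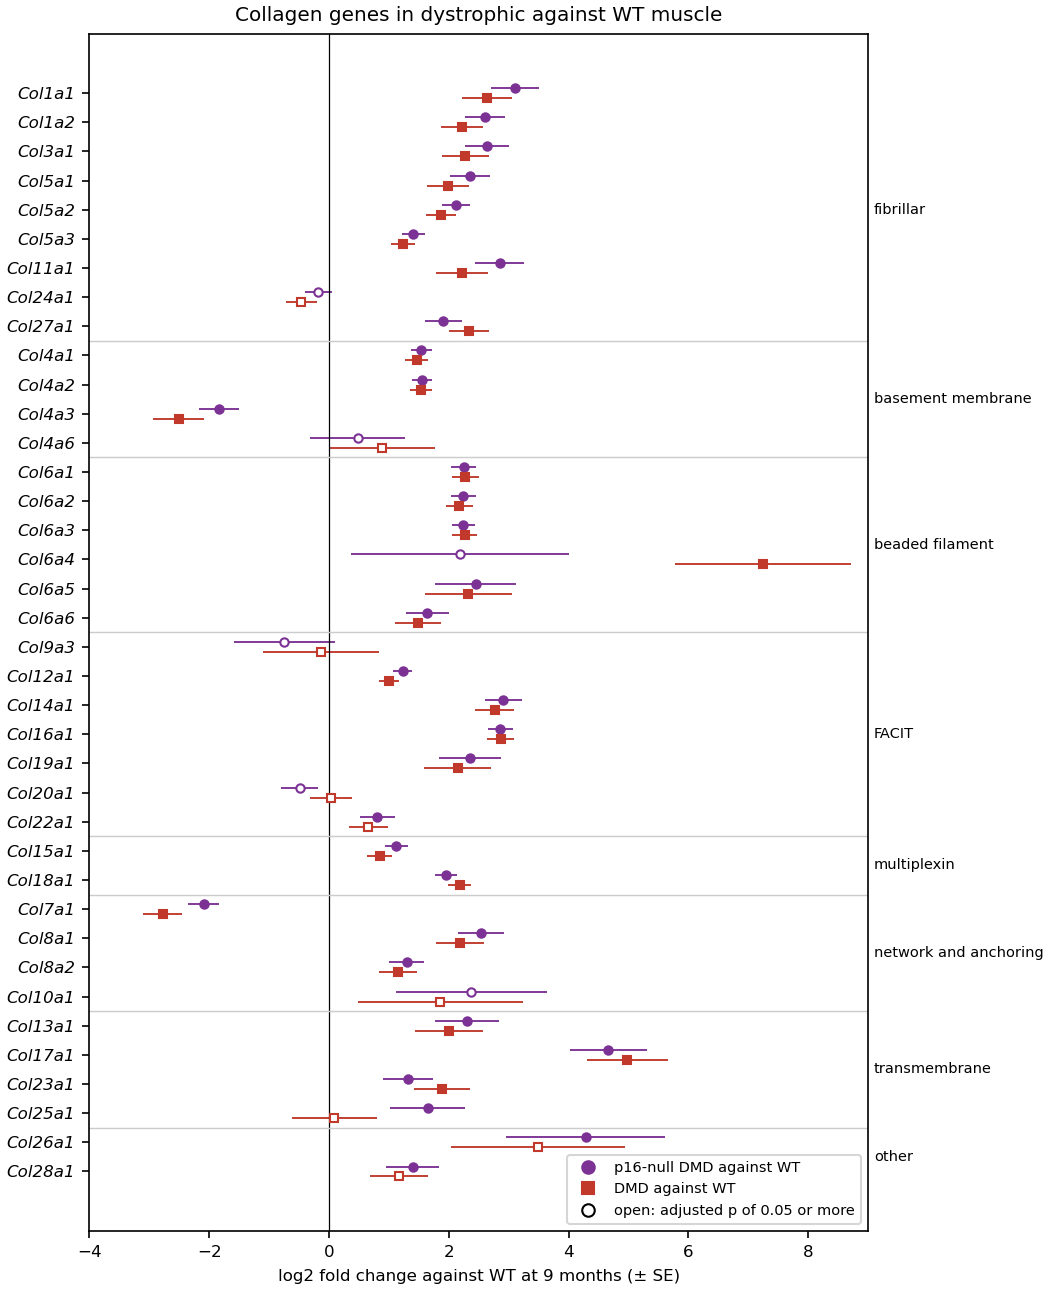
Log2 fold change against WT at 9 months (horizontal, with SE) of the 38 tested collagen genes (vertical, by class) for p16-null DMD (circles) and DMD (squares), with open symbols at an adjusted p of 0.05 or more. Col4a3 and Col7a1 are the filled symbols left of 0; the value of Col6a4 in DMD rests on a WT group with 0 counts and is not a bound.

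Among fibrillar genes, 8 of 9 tested rose in p16-null DMD and the same number in DMD. Col1a1 was at 1305 to 5010.0 CPM (median 2455) in p16-null DMD, 2537, 1232 and 1986 CPM in DMD and 388, 240.5 and 298 CPM in WT. The log2 fold change was 3.11 ± 0.40 (adjusted p = 1.9e-05) in p16-null DMD and 2.64 ± 0.42 (adjusted p = 0.000123) in DMD. The 9 dystrophic libraries all lay above the 3 WT libraries, and DMD replicate 2 was the lowest of its group. Col1a2 was at 1339.5 to 3771 CPM (median 2219) in p16-null DMD, 2180.1, 1047 and 1965 CPM in DMD and 427, 347 and 341 CPM in WT. It rose by 2.61 ± 0.33 (adjusted p = 1.8e-05) on the log2 scale in p16-null DMD and by 2.23 ± 0.35 (adjusted p = 0.000128) in DMD, again with no overlap with WT and with DMD replicate 2 lowest in DMD. Col3a1 was at 1987 to 6919.6 CPM (median 4319) in p16-null DMD, 4474, 2010.3 and 3371 CPM in DMD and 694, 609 and 743 CPM in WT. Its change was 2.65 ± 0.37 (adjusted p = 3.49e-05) in p16-null DMD and 2.28 ± 0.39 (adjusted p = 0.000228) in DMD, and the highest p16-null DMD library was above every DMD library while the lowest was below every one.

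The stretch of 120 bases before the annotated start of Col1a2 is given because the gene moved in both genotypes and with age (RefSeq, GRCr8, chr4:33518437-33518556, plus strand). The search covered both strands for TATAAA (the TATA box), CCAAT (the box of that name) and GGGCGG (the GC box). These letters hold no match, whereas the full 250 bases before the annotated start hold both TATAAA and the CCAAT box. Where transcription of Col1a2 begins was not tested, so the distance of these boxes from it is not known here.
Col1a2: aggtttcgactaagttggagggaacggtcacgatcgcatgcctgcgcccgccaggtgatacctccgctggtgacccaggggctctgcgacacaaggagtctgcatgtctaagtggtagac

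Type V collagen forms the core on which type I fibrils start. Col5a2 was at 244 to 536 CPM (median 353) in p16-null DMD, 352, 263 and 346 CPM in DMD and 80.0, 84.0 and 99.0 CPM in WT, with a log2 fold change of 2.12 ± 0.23 (adjusted p = 4.81e-06) in p16-null DMD and 1.87 ± 0.25 (adjusted p = 2.99e-05) in DMD. No dystrophic library overlapped with WT. Col5a1 changed by 2.35 ± 0.33 in p16-null DMD and 1.99 ± 0.35 in DMD, and Col5a3, an alternative chain, by 1.41 ± 0.19 in p16-null DMD and 1.24 ± 0.20 in DMD, all past the threshold. Col11a1, a type XI chain best known from cartilage and growing tendon, rose by 2.85 ± 0.41 in p16-null DMD and 2.22 ± 0.43 in DMD, and Col27a1, a minor fibrillar chain, by 1.91 ± 0.31 in p16-null DMD and 2.34 ± 0.33 in DMD. Col24a1, another minor fibrillar chain, did not pass, at -0.18 ± 0.22 (adjusted p = 0.525) in p16-null DMD and -0.46 ± 0.25 (adjusted p = 0.149) in DMD, although its WT libraries lay above all dystrophic ones. Col2a1, the main collagen of cartilage, stayed at or below 0.498 CPM in p16-null DMD, 0.906 CPM in DMD and 0.459 CPM in WT of 9 months.

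Of the 6 type VI genes, 5 rose in p16-null DMD and 6 in DMD. Col6a1, Col6a2 and Col6a3 encode the chains of the classic type VI molecule, whose loss causes congenital muscular dystrophy in humans. Col6a1 was at 559.7 to 1088 CPM (median 807) in p16-null DMD, 859, 718 and 879.7 CPM in DMD and 187, 141 and 181 CPM in WT. The change was 2.25 ± 0.21 (adjusted p = 1.61e-06) in p16-null DMD and 2.28 ± 0.23 (adjusted p = 3.94e-06) in DMD. Col6a2 was at 553 to 1117 CPM (median 825) in p16-null DMD, 789, 709 and 848 CPM in DMD and 184, 155 and 182 CPM in WT. It rose by 2.24 ± 0.21 (adjusted p = 1.58e-06) in p16-null DMD and 2.17 ± 0.23 (adjusted p = 5.04e-06) in DMD. Col6a3 was at 645 to 1038 CPM (median 848) in p16-null DMD, 901, 754 and 945 CPM in DMD and 154, 193 and 197 CPM in WT. Its change was 2.24 ± 0.20 (adjusted p = 1.02e-06) in p16-null DMD and 2.26 ± 0.21 (adjusted p = 2.53e-06) in DMD, and for all 3 genes every dystrophic library exceeded every WT library.

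The alternative type VI chains were far less abundant. Col6a6 was at 49.7 to 121 CPM (median 64.3) in p16-null DMD, 114, 42.1 and 43.9 CPM in DMD and 24.2, 23.2 and 24.7 CPM in WT. Col6a6 changed by 1.64 ± 0.35 (adjusted p = 0.00132) in p16-null DMD and 1.48 ± 0.39 (adjusted p = 0.00533) in DMD. DMD replicate 1 stood well above the other DMD libraries. Col6a5 rose by 2.45 ± 0.67 (adjusted p = 0.00716) in p16-null DMD and 2.32 ± 0.73 (adjusted p = 0.0158) in DMD, and the call in DMD was lost without WT replicate 1 or without DMD replicate 1 (adjusted p = 0.0664 to 0.118). Col6a4 was at 0 to 0.0872 CPM (median 0) in p16-null DMD, 1.21, 1.01 and 1.72 CPM in DMD and 0, 0 and 0 CPM in WT. It was thus seen in all 3 DMD libraries, with 63 counts in all, against 0 counts in WT, which makes it at least 12.9-fold higher when WT is set to a floor of 3 counts for the whole group (adjusted p = 0.00129). In p16-null DMD the 6 libraries together held 3 counts, at the floor, so no fold against WT is given. Placing Col6a4 at its bound leaves the median of the type VI genes in DMD at 2.27.

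**Figure D3:**
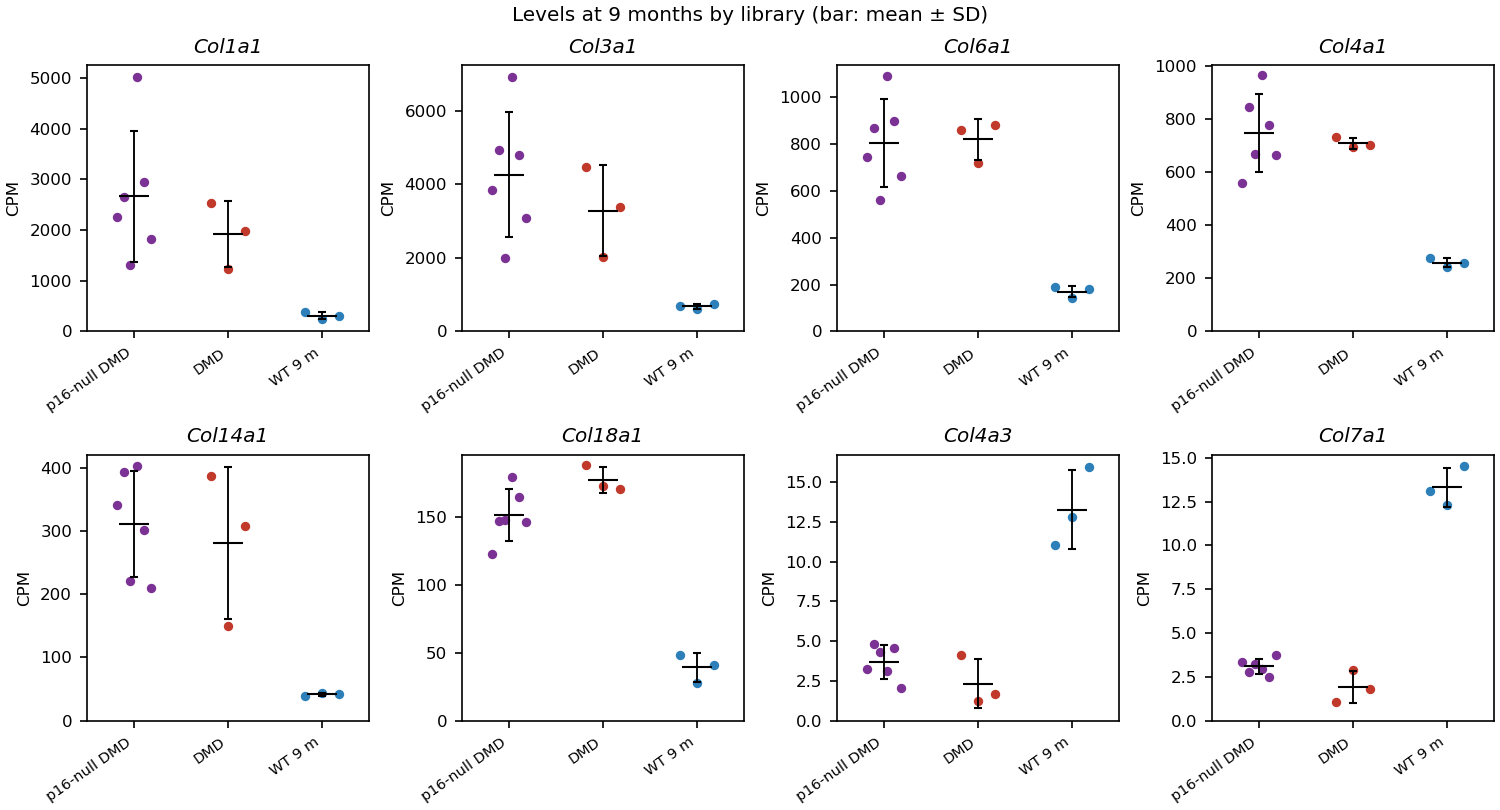
CPM per library (points) with the mean and SD (bars) of 8 collagen genes at 9 months in p16-null DMD, DMD and WT. The dystrophic libraries lie above all WT libraries for Col1a1, Col3a1, Col6a1, Col4a1, Col14a1 and Col18a1 and below all of them for Col4a3 and Col7a1.

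Of the 4 type IV genes, Col4a1 and Col4a2 rose, Col4a3 fell and Col4a6 did not pass in either genotype. Col4a1 and Col4a2 encode the chains found in nearly all basement membranes. Col4a1 was at 559.8 to 966 CPM (median 722) in p16-null DMD, 732, 693 and 700.4 CPM in DMD and 275, 241 and 259 CPM in WT. Its change was 1.54 ± 0.18 (adjusted p = 6.93e-06) in p16-null DMD and 1.46 ± 0.19 (adjusted p = 2.78e-05) in DMD. Col4a2 was at 377 to 627 CPM (median 486) in p16-null DMD, 477, 468 and 501 CPM in DMD and 184, 156 and 161 CPM in WT. It rose by 1.55 ± 0.17 (adjusted p = 4.12e-06) in p16-null DMD and 1.53 ± 0.18 (adjusted p = 1.3e-05) in DMD, and for both genes the DMD libraries lay close together and well above WT.

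Col4a1 and Col4a2 are neighbours that are read in opposite directions from a shared stretch of 76 bases between their starts, given here because both genes rose in each dystrophic genotype against WT (RefSeq, GRCr8, chr16:84885521-84885596, plus strand). Capitals mark the 1 match to GGGCGG, which reads as its complement on this strand.
Col4a1 and Col4a2: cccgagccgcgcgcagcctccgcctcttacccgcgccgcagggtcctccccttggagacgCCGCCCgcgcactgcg

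Col4a3, a chain of the specialised basement membranes of the kidney filter and of the synapse between nerve and muscle, went the other way. It was at 2.08 to 4.79 CPM (median 3.80) in p16-null DMD, 4.12, 1.23 and 1.65 CPM in DMD and 11.0, 12.8 and 15.99 CPM in WT. The log2 fold change was -1.84 ± 0.34 (adjusted p = 0.000373) in p16-null DMD and -2.51 ± 0.43 (adjusted p = 0.000243) in DMD, and all WT libraries exceeded all dystrophic ones. Col4a6, a chain of basement membranes around smooth muscle, was at 0.0831 to 1.65 CPM (median 0.413) in p16-null DMD, 1.35, 0.533 and 0.509 CPM in DMD and 0.435, 0.270 and 0.551 CPM in WT, near the limit of detection and overlapping between groups, with changes of 0.48 ± 0.79 (adjusted p = 0.641) in p16-null DMD and 0.89 ± 0.88 (adjusted p = 0.428) in DMD. In the neuromuscular junction list, 5 of 9 tested genes rose and 1 fell in p16-null DMD, and 3 rose and 1 fell in DMD. Called were 66.7% of the list in p16-null DMD and 44.4% in DMD, beside 50.2% and 48.3% of all genes. The list summed to 210.1 to 465 CPM in p16-null DMD and 209.7 to 333 CPM in DMD, against 148 to 267 CPM in WT. The part of these genes in the level of Col4a3 was not tested.

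In the FACIT class 5 of 7 tested genes rose in p16-null DMD and 4 in DMD. Col14a1, which coats type I fibrils and limits their thickness, was at 209 to 403 CPM (median 322) in p16-null DMD, 387, 149.9 and 308 CPM in DMD and 38.6, 43.9 and 42.4 CPM in WT. It rose by 2.91 ± 0.31 (adjusted p = 3.71e-06) in p16-null DMD and 2.77 ± 0.32 (adjusted p = 1.19e-05) in DMD, with no overlap with WT. Col16a1, a FACIT of skin and smooth muscle, was at 50.03 to 88.1 CPM (median 55.6) in p16-null DMD, 70.2, 56.6 and 60.8 CPM in DMD and 7.82, 8.24 and 9.74 CPM in WT. Col16a1 changed by 2.86 ± 0.21 (adjusted p = 3.7e-07) in p16-null DMD and 2.87 ± 0.23 (adjusted p = 1.46e-06) in DMD. Its dystrophic libraries all lay several times above WT. Col12a1, whose mutation causes a myopathy with lax joints in humans, was at 94.8 to 121 CPM (median 114) in p16-null DMD, 82.8, 81.0 and 120.1 CPM in DMD and 44.1, 55.6 and 42.9 CPM in WT. Col12a1 changed by 1.23 ± 0.15 (adjusted p = 1.46e-05) in p16-null DMD and 0.9998 ± 0.17 (adjusted p = 0.000223) in DMD.

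Col19a1, a rare FACIT that muscle cells make as they differentiate in mouse embryos, was at 14.7 to 82.4 CPM (median 40.0) in p16-null DMD, 17.7, 46.9 and 39.7 CPM in DMD and 7.47, 4.59 and 11.2 CPM in WT. The change was 2.35 ± 0.52 (adjusted p = 0.00169) in p16-null DMD and 2.15 ± 0.56 (adjusted p = 0.00546) in DMD, with a wide spread in both genotypes but no overlap with WT. Col22a1, which sits at the junction of muscle and tendon, rose by 0.81 ± 0.29 (adjusted p = 0.0325) in p16-null DMD, where its libraries overlapped with WT, and was at 0.66 ± 0.33 (adjusted p = 0.112) in DMD. The call in p16-null DMD was lost without WT replicate 1 or 2 or p16-null DMD replicate 1, 3 or 5 (adjusted p = 0.0503 to 0.143). It was also lost in 1 fit of all 18 libraries (adjusted p = 0.0977). In DMD Col22a1 was called with library totals (adjusted p = 0.00459), by limma on log2 (TPM + 1) (adjusted p = 0.00966) and by edgeR without DMD replicate 1 (adjusted p = 0.0232). Col20a1 and Col9a3, a chain of cartilage fibrils, did not pass in either genotype.

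The multiplexins, basement membrane collagens that carry sugar chains, rose in both genotypes. Col18a1, the source of the fragment endostatin, was at 123 to 179.7 CPM (median 148) in p16-null DMD, 188, 173 and 171 CPM in DMD and 48.8, 27.5 and 41.3 CPM in WT. It changed by 1.95 ± 0.18 (adjusted p = 1.43e-06) in p16-null DMD and 2.18 ± 0.20 (adjusted p = 2.29e-06) in DMD. Col15a1, which anchors the basement membrane of muscle and capillaries to nearby fibrils, was at 261 to 436 CPM (median 293) in p16-null DMD, 328, 203 and 264 CPM in DMD and 161, 129 and 155 CPM in WT. Col15a1 changed by 1.12 ± 0.19 (adjusted p = 0.000204) in p16-null DMD and 0.85 ± 0.21 (adjusted p = 0.00399) in DMD. Neither gene overlapped between the dystrophic genotypes and WT.

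Col7a1, which forms the anchoring fibrils that tie skin to its basement membrane, was the other gene that fell. It was at 2.49 to 3.77 CPM (median 3.09) in p16-null DMD, 1.07, 2.88 and 1.78 CPM in DMD and 13.1, 12.3 and 14.5 CPM in WT. The change was -2.09 ± 0.26 (adjusted p = 1.34e-05) in p16-null DMD and -2.78 ± 0.33 (adjusted p = 1.38e-05) in DMD, and every dystrophic library was below every WT library. The chains of type VIII collagen, which forms lattices in vessel walls and under the corneal endothelium, rose. Col8a1 was at 16.3 to 34.3 CPM (median 29.3) in p16-null DMD, 22.6, 9.44 and 30.7 CPM in DMD and 2.96, 6.48 and 4.59 CPM in WT. Col8a1 changed by 2.54 ± 0.38 (adjusted p = 6.82e-05) in p16-null DMD and 2.19 ± 0.41 (adjusted p = 0.000458) in DMD. Col8a2 was at 13.1 to 35.3 CPM (median 21.9) in p16-null DMD, 18.0, 22.8 and 22.2 CPM in DMD and 9.47, 9.32 and 9.74 CPM in WT. Col8a2 changed by 1.297 ± 0.29 (adjusted p = 0.00168) in p16-null DMD and 1.15 ± 0.32 (adjusted p = 0.00779) in DMD, with no overlap with WT for either gene. Col10a1, the collagen of hypertrophic cartilage, stayed below 2 CPM in p16-null DMD, DMD and WT and did not pass, at 2.37 ± 1.26 (adjusted p = 0.132) in p16-null DMD and 1.86 ± 1.38 (adjusted p = 0.283) in DMD.

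The 120 bases before the start of Col7a1 are given as those of a gene that went against the majority (RefSeq, GRCr8, chr8:118483244-118483363, plus strand), with capitals at a match to GGGCGG.
Col7a1: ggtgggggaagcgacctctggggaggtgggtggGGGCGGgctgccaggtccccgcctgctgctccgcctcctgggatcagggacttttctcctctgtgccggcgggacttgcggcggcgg

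Transmembrane collagens were scarce in WT. Col17a1, a component of the hemidesmosomes of skin, was at 1.83 to 5.21 CPM (median 3.79) in p16-null DMD, 3.41, 4.64 and 5.67 CPM in DMD and 0, 0.270 and 0.184 CPM in WT. It rose by 4.67 ± 0.65 (adjusted p = 3.49e-05) in p16-null DMD and 4.98 ± 0.68 (adjusted p = 3.66e-05) in DMD, and no dystrophic library overlapped with WT. Col13a1, which helps to mature the synapse between nerve and muscle, was at 2.003 to 4.24 CPM (median 2.86) in p16-null DMD, 0.853, 3.79 and 2.42 CPM in DMD and 0.348, 0.810 and 0.643 CPM in WT. Col13a1 changed by 2.30 ± 0.53 (adjusted p = 0.0023) in p16-null DMD and 2.003 ± 0.58 (adjusted p = 0.00981) in DMD. The call of Col13a1 in DMD was lost without DMD replicate 2 (adjusted p = 0.0579).

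Col23a1, another transmembrane collagen, was at 2.74 to 6.56 CPM (median 3.73) in p16-null DMD, 5.54, 6.19 and 6.49 CPM in DMD and 2.35, 0.405 and 2.02 CPM in WT. Col23a1 changed by 1.32 ± 0.42 (adjusted p = 0.0175) in p16-null DMD and 1.88 ± 0.47 (adjusted p = 0.00396) in DMD, and the call in p16-null DMD was lost without WT replicate 2 (adjusted p = 0.0614). Col25a1, which muscle needs to receive motor axons in mouse embryos, was at 0.778 to 6.56 CPM (median 3.33) in p16-null DMD, 1.35, 1.01 and 1.15 CPM in DMD and 1.13, 1.49 and 0.735 CPM in WT. It passed in p16-null DMD at 1.65 ± 0.63 (adjusted p = 0.0411), where its libraries overlapped with WT, and was at 0.09 ± 0.71 (adjusted p = 0.931) in DMD. The call of Col25a1 was lost without any 1 of the WT replicates or without p16-null DMD replicate 2, 3 or 6 (adjusted p = 0.0608 to 0.143), and with the replicate number as a block (adjusted p = 0.117).

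Of the other collagens, Col28a1, a collagen of peripheral nerve, was at 3.31 to 9.09 CPM (median 5.71) in p16-null DMD, 8.17, 3.47 and 3.25 CPM in DMD and 1.39, 2.57 and 2.76 CPM in WT. It rose by 1.40 ± 0.44 (adjusted p = 0.0156) in p16-null DMD and was at 1.16 ± 0.48 (adjusted p = 0.0588) in DMD, with no overlap with WT in either, and the call in p16-null DMD was lost without WT replicate 1 (adjusted p = 0.0801). In DMD it was called by DESeq2 (adjusted p = 0.0433), with library totals (adjusted p = 0.00701), by limma on log2 (TPM + 1) (adjusted p = 0.0199) and by edgeR without DMD replicate 2 or 3 or p16-null DMD replicate 4 (adjusted p = 0.0423 to 0.0494). Col26a1 was at 0.325 to 1.25 CPM (median 0.893) in p16-null DMD, 0, 1.01 and 0.382 CPM in DMD and 0, 0.135 and 0 CPM in WT. With 78 counts in p16-null DMD and 1 in WT, it was 24.5 times higher (95% counting interval 4.28 to 981, adjusted p = 0.0143), a call that was lost without WT replicate 1 or 3 (adjusted p = 0.0636 to 0.0651). In DMD it had 25 counts, 15.4 times those of WT (95% counting interval 2.51 to 630.0), and did not pass (adjusted p = 0.0593). There Col26a1 was called by DESeq2 (adjusted p = 0.0353), with library totals (adjusted p = 0.0209) and by edgeR without WT replicate 2 or DMD replicate 1 (adjusted p = 0.0165 to 0.0497). Intervals cover counting error only.

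Between p16-null DMD and DMD, no collagen gene passed the threshold among 38 tested (edgeR quasi-likelihood test). Of all 14801 genes 0.00676% were called, 1 gene, and 764 genes and 3 members (Col6a4, Col7a1 and Col25a1) had an unadjusted p under 0.05. The log2 fold changes were 0.47 ± 0.35 (adjusted p = 0.959) for Col1a1, 0.37 ± 0.32 (adjusted p = 0.974) for Col3a1, 0.07 ± 0.16 (adjusted p = 0.987) for Col4a1 and -0.03 ± 0.19 (adjusted p = 0.991) for Col6a1. The groups overlapped for each of these 4 genes. Col7a1, at 0.69 ± 0.29 (adjusted p = 0.876), and Col4a3, at 0.67 ± 0.38 (adjusted p = 0.939), were higher in p16-null DMD than in DMD on average, with overlapping libraries. Col25a1 was at 1.56 ± 0.60 (adjusted p = 0.83) with overlapping libraries. Col27a1 was at -0.43 ± 0.25 (adjusted p = 0.939), with its 6 p16-null DMD libraries all below the 3 DMD libraries.

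The libraries of p16-null DMD and DMD did not overlap for 2 of the 38 tested members, Col6a4 and Col27a1, and for 2.02% of all genes tested. Col6a4 had 3 counts over 6 p16-null DMD libraries and 63 over 3 DMD libraries, 41.0 times lower in p16-null DMD (95% counting interval 13.4 to 204), with 0 to 0.0872 CPM (median 0) in p16-null DMD and 1.21, 1.01 and 1.72 CPM in DMD. The fit gave -5.07 ± 0.81 (adjusted p = 0.216). DESeq2 called it (adjusted p = 0.0137), and edgeR called it without DMD replicate 1 (adjusted p = 0.0326).

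In WT muscle 8 of 9 tested fibrillar genes fell between 18 and 3 months. Between these ages 2 of 31 tested collagen genes rose and 12 fell, with a median log2 fold change of -0.35, against 9.31% of all 13487 genes tested that rose, 10.1% that fell and an all-gene median of 0.00. When libraries were scaled by their totals, 4 collagen genes were higher and 9 lower, beside 2609 genes higher and 652 lower over all genes (1256 and 1366 with TMM) and an all-gene median of 0.24. By limma on log2 (TPM + 1), 3 members were higher and 6 lower, and Col4a3, Col5a1, Col5a2, Col15a1, Col22a1 and Col24a1 were not called. Col4a3, Col5a1 and Col5a2 were not called in 1 fit of all 18 libraries, nor Col4a3, Col5a2 and Col24a1 with library totals.

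The WT libraries of 9 months belong to the other arm of the study, so age and any difference in handling between the arms cannot be told apart in comparisons with them. Between 9 and 3 months no collagen gene rose and 14 of 34 tested fell, against 1.29% and 1.13% of all 13773 genes tested. That count was 6 without WT replicate 2 of 9 months, 5 without replicate 3 of 9 months, 5 without replicate 1 of 3 months, 6 without replicate 2 of 3 months, 3 in 1 fit of all 18 libraries (Col1a1, Col1a2 and Col3a1) and 2 by limma on log2 (TPM + 1) (Col1a1 and Col3a1). Between 18 and 9 months 6 rose and 4 fell of 34 tested, against 6.72% and 7.37% of all genes. With library totals the all-gene split was 3318 higher and 393 lower (925 and 1015 with TMM), and 9 members were higher and 2 lower, while limma on log2 (TPM + 1) called none of the 4 lower.

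Col1a1 was at 2346, 1680.0 and 695 CPM at 3 months, 388, 240.5 and 298 CPM at 9 months and 243, 181 and 221 CPM at 18 months. The log2 fold change was -2.87 ± 0.32 (adjusted p = 2.53e-05) between 18 and 3 months, -2.37 ± 0.31 (adjusted p = 0.000564) between 9 and 3 months and -0.50 ± 0.30 (adjusted p = 0.295) between 18 and 9 months. Libraries of 9 and 18 months overlapped, those of 3 months lay above both, and replicate 3 of 3 months stood well below the other libraries of its age. Left-out libraries moved the change between 18 and 3 months over -3.23 to -2.46. Col1a2 was at 1921, 1376 and 605 CPM at 3 months, 427, 347 and 341 CPM at 9 months and 344, 276 and 299 CPM at 18 months. Col1a2 changed by -2.08 ± 0.29 (adjusted p = 2e-04) between 18 and 3 months and -1.82 ± 0.28 (adjusted p = 0.0023) between 9 and 3 months. Col3a1 was at 2338, 1941 and 1466 CPM at 3 months, 694, 609 and 743 CPM at 9 months and 667, 539.9 and 690.4 CPM at 18 months. Its change was -1.59 ± 0.17 (adjusted p = 2.1e-05) between 18 and 3 months and -1.50 ± 0.17 (adjusted p = 0.000132) between 9 and 3 months, with no overlap between 3 months and either later age.

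Col5a2 was at 179.6, 157 and 120.5 CPM at 3 months, 80.0, 84.0 and 99.0 CPM at 9 months and 100.8, 92.0 and 89.9 CPM at 18 months. Col5a2 changed by -0.69 ± 0.15 (adjusted p = 0.00452) between 18 and 3 months. Col5a1 changed by -0.81 ± 0.17 (adjusted p = 0.00383), and both genes overlapped between 9 and 18 months. Col5a3 differed from them in that it also fell between 18 and 9 months, at 58.4, 53.1 and 49.9 CPM at 3 months, 29.6, 33.4 and 34.0 CPM at 9 months and 19.4, 12.6 and 24.7 CPM at 18 months, with -1.50 ± 0.19 (adjusted p = 9.83e-05) between 18 and 3 months and -0.75 ± 0.19 (adjusted p = 0.0144) between 18 and 9 months. The later call was lost without WT replicate 3 of 9 months or replicate 2 of 18 months (adjusted p = 0.0509 to 0.0598). Col11a1 was at 24.7, 15.8 and 5.86 CPM at 3 months, 4.61, 5.94 and 0.919 CPM at 9 months and 3.53, 3.49 and 2.23 CPM at 18 months. Col11a1 changed by -2.32 ± 0.42 (adjusted p = 0.00132) between 18 and 3 months, and Col24a1 changed by -0.91 ± 0.28 (adjusted p = 0.0365). The call of Col24a1 was lost without any 1 of the 3-month replicates or replicate 1 or 3 of 18 months (adjusted p = 0.0523 to 0.14). Col2a1, not tested, had 3 counts at 18 months and 44 at 3 months, 14.9 times lower at 18 months (95% counting interval 4.79 to 75.2), and most of the 44 lay in replicate 1 of 3 months, with 0, 0 and 0.258 CPM at 18 months and 3.11, 0.0973 and 0.756 CPM at 3 months.

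Of the 8 tenocyte genes listed, 3 fell (Tnmd, Fmod and Kera) and 1 rose (Scx) between 18 and 3 months, beside the 10.1% and 9.31% of all genes, and Mkx, Thbs4, Chodl and Tnc did not pass. Tnmd, a membrane protein of tendon cells, was at 1.72, 2.09 and 0.258 CPM at 18 months and 35.4, 31.1 and 6.15 CPM at 3 months. Fmod, a proteoglycan of tendon fibrils, was at 28.3, 40.3 and 21.2 CPM at 18 months and 366, 252 and 57.7 CPM at 3 months. Both were highest in replicate 1 and lowest in replicate 3 of 3 months, the order that Col1a1, Col1a2, Col3a1 and Col11a1 had. That order was not particular to falling fibrillar genes. Col6a1, Col6a3, Col12a1 and Col15a1 had it too, as did Col19a1, which rose with age, while Col4a1, Col4a2 and Col16a1 did not. Scx, a transcription factor of tendon, went the other way, at 32.6, 26.1 and 17.9 CPM at 18 months and 11.4, 6.52 and 20.7 CPM at 3 months, with overlapping libraries. The sum of the list was 141 to 268 CPM at 18 months and 213 to 791 CPM at 3 months. Of the fibroblast list, 2 of 11 rose and 2 fell, with sums of 3118 to 3596 CPM at 18 months and 3017 to 4905 CPM at 3 months. In these bulk libraries fewer cells of a type and less RNA per cell cannot be told apart, and the part of tendon in the fall of the fibrillar genes was not tested.

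**Figure D4:**
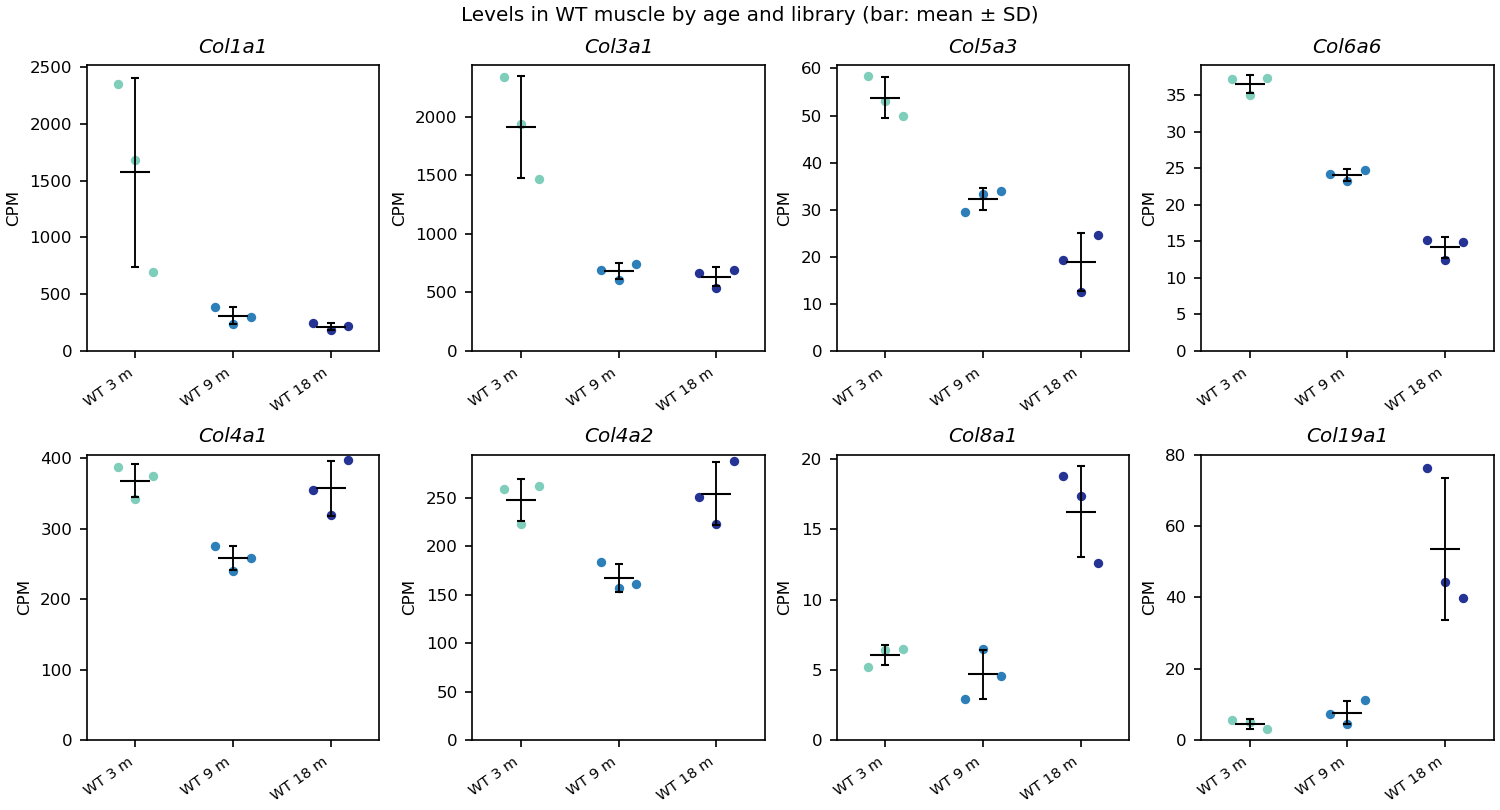
CPM per library (points) with the mean and SD (bars) of 8 collagen genes in WT muscle at 3, 9 and 18 months. Col1a1 and Col3a1 are high at 3 months, Col5a3 and Col6a6 are lower at each later age, Col4a1 and Col4a2 are lowest at 9 months, and Col8a1 and Col19a1 are high at 18 months.

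Type IV and type VI genes had other courses. Col4a1 was at 387, 342 and 375 CPM at 3 months, 275, 241 and 259 CPM at 9 months and 355, 319 and 397 CPM at 18 months. It was -0.04 ± 0.12 (adjusted p = 0.871) between 18 and 3 months, fell by 0.52 ± 0.12 (adjusted p = 0.0281) between 9 and 3 months and rose by 0.49 ± 0.12 (adjusted p = 0.0103) between 18 and 9 months. Col4a2 was at 259, 223 and 263 CPM at 3 months, 184, 156 and 161 CPM at 9 months and 251, 223 and 288 CPM at 18 months, with 0.04 ± 0.13 (adjusted p = 0.86), -0.58 ± 0.13 (adjusted p = 0.0224) and 0.63 ± 0.13 (adjusted p = 0.00294) in the same 3 comparisons. For both genes the 9-month libraries lay below all others, while those of 3 and 18 months overlapped. The drop between 9 and 3 months was lost for Col4a1 without WT replicate 2 or 3 of 9 months or replicate 1 or 2 of 3 months (adjusted p = 0.0534 to 0.112) and for Col4a2 without replicate 2 or 3 of 9 months or replicate 1 of 3 months (adjusted p = 0.0736 to 0.0984). The rise of Col4a1 between 18 and 9 months was lost without replicate 3 of 18 months (adjusted p = 0.0571) and in 1 fit of all 18 libraries (adjusted p = 0.0975). Col4a3 was at 19.97, 18.5 and 13.2 CPM at 3 months, 11.0, 12.8 and 15.99 CPM at 9 months and 11.9, 10.3 and 9.87 CPM at 18 months. Col4a3 changed by -0.69 ± 0.20 (adjusted p = 0.0286) between 18 and 3 months, a call that was lost without any 1 of the 18-month replicates or replicate 1 or 2 of 3 months (adjusted p = 0.0503 to 0.101).

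Col6a6 was lower at each later age, with 37.2, 35.03 and 37.3 CPM at 3 months, 24.2, 23.2 and 24.7 CPM at 9 months and 15.1, 12.5 and 14.9 CPM at 18 months. It changed by -1.36 ± 0.15 (adjusted p = 2.16e-05) between 18 and 3 months, -0.61 ± 0.14 (adjusted p = 0.0281) between 9 and 3 months and -0.74 ± 0.14 (adjusted p = 0.00234) between 18 and 9 months, and no libraries of different ages overlapped. The call between 9 and 3 months was lost without any 1 of the 9-month or 3-month replicates (adjusted p = 0.0562 to 0.0928), in a fit of these 2 ages alone (adjusted p = 0.0501), in 1 fit of 18 libraries (adjusted p = 0.496) and by limma on log2 (TPM + 1) (adjusted p = 0.339), and that between 18 and 9 months in 1 fit of 18 libraries (adjusted p = 0.194) and by limma (adjusted p = 0.234). Col6a1, Col6a2 and Col6a3 did not pass between 18 and 3 months, at -0.35 ± 0.14 (adjusted p = 0.0876), -0.39 ± 0.14 (adjusted p = 0.0725) and -0.30 ± 0.19 (adjusted p = 0.313); without replicate 3 of 3 months all 3 were called lower (adjusted p = 0.0112, 0.00976 and 0.049). Col15a1 was at 257, 252 and 229.9 CPM at 3 months, 161, 129 and 155 CPM at 9 months and 155, 98.7 and 152 CPM at 18 months. Col15a1 changed by -0.86 ± 0.16 (adjusted p = 0.00149) between 18 and 3 months, whereas Col18a1 was at 0.09 ± 0.14 (adjusted p = 0.718). Col7a1 was at 10.2, 11.1 and 8.604 CPM at 3 months, 13.1, 12.3 and 14.5 CPM at 9 months and 5.97, 11.1 and 10.3 CPM at 18 months and did not pass in any comparison of ages.

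Col19a1 and Col8a1 were the 2 collagen genes that rose between 18 and 3 months. Col19a1 was at 5.68, 5.16 and 3.03 CPM at 3 months, 7.47, 4.59 and 11.2 CPM at 9 months and 76.4, 44.4 and 39.8 CPM at 18 months. The change was 3.53 ± 0.28 (adjusted p = 9.02e-07) between 18 and 3 months and 2.78 ± 0.30 (adjusted p = 1.76e-05) between 18 and 9 months, and every 18-month library was above every younger one. Col8a1 was at 5.24, 6.42 and 6.52 CPM at 3 months, 2.96, 6.48 and 4.59 CPM at 9 months and 18.8, 17.4 and 12.6 CPM at 18 months. Col8a1 changed by 1.43 ± 0.22 (adjusted p = 0.000443) between 18 and 3 months and 1.85 ± 0.28 (adjusted p = 0.000289) between 18 and 9 months, again with no overlap. Left-out libraries moved the change between 18 and 3 months over 3.19 to 3.72 for Col19a1 and 1.32 to 1.59 for Col8a1, and both calls held in each. Of the neuromuscular junction list, 5 of 9 tested genes rose and 1 fell between 18 and 3 months, beside 9.31% and 10.1% of all genes. The list summed to 583 to 752 CPM at 18 months and 143 to 178 CPM at 3 months. Its part in the rise of Col19a1 was not tested.

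The 120 bases before the starts of these 2 genes are given from RefSeq, GRCr8, at chr9:34518258-34518377 (minus strand) and chr11:56246662-56246781 (plus strand), with capitals at matches to GGGCGG or its complement. Col8a1 holds several matches and Col19a1 none. Over the 250 bases before the start, GGGCGG on either strand lay in 17 of the 32 collagen genes that have a RefSeq promoter (53.1%) and in 32.4% of 27457 promoters, CCAAT in 11 (34.4% against 34.3%) and TATAAA in 4 (12.5% against 13.1%). A match is a description of the letters and not a binding site.
Col19a1: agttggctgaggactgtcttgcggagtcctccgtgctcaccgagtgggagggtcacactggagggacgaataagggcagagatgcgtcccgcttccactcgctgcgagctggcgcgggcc
Col8a1: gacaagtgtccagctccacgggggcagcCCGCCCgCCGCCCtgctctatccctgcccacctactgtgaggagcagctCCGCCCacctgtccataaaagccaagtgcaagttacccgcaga

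Among the FACITs in WT, Col14a1 was at 96.7, 85.6 and 53.2 CPM at 3 months, 38.6, 43.9 and 42.4 CPM at 9 months and 93.7, 102 and 61.2 CPM at 18 months, lowest at 9 months, with -0.93 ± 0.21 (adjusted p = 0.0277) between 9 and 3 months and 1.07 ± 0.21 (adjusted p = 0.00254) between 18 and 9 months. The fall between 9 and 3 months was lost without any 1 of the 9-month replicates or replicate 1 or 2 of 3 months (adjusted p = 0.0522 to 0.116). Col16a1 was at 15.3, 16.2 and 11.7 CPM at 3 months, 7.82, 8.24 and 9.74 CPM at 9 months and 13.03, 13.5 and 14.8 CPM at 18 months and rose between 18 and 9 months by 0.70 ± 0.20 (adjusted p = 0.0273), a call lost without WT replicate 1 or 2 of 9 months or any 1 replicate of 18 months (adjusted p = 0.0613 to 0.0894). Col12a1 was at 60.4, 47.1 and 29.0 CPM at 3 months, 44.1, 55.6 and 42.9 CPM at 9 months and 71.6, 57.7 and 37.9 CPM at 18 months and passed in no comparison of ages. Col22a1 was at 24.6, 21.7 and 4.44 CPM at 3 months, 9.47, 11.5 and 15.4 CPM at 9 months and 4.71, 4.39 and 2.23 CPM at 18 months. It changed by -2.17 ± 0.48 (adjusted p = 0.00545) between 18 and 3 months, although replicate 3 of 3 months lay within the range of 18 months, and by -1.67 ± 0.47 (adjusted p = 0.0254) between 18 and 9 months, a call lost without replicate 3 of 9 months or any 1 replicate of 18 months (adjusted p = 0.0502 to 0.108).

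Ratios between collagen genes within a library do not depend on the scaling between libraries. The TPM ratio of Col1a1 to Col1a2 was 0.925 ± 0.103 in p16-null DMD (SD, n = 6) and 0.910 ± 0.0823 in DMD (n = 3), against 0.666 ± 0.1001 in WT of 9 months (n = 3). In WT it was 0.974 ± 0.0392 at 3 months, 0.666 at 9 months and 0.561 ± 0.0357 at 18 months (n = 3 each). All dystrophic libraries were above all WT libraries of 9 months, and all libraries of 3 months above those of 9 and 18 months. The ratio of Col1a1 to Col3a1 was 0.512 ± 0.0526 in p16-null DMD and 0.4931 ± 0.0229 in DMD, against 0.376 ± 0.0786 in WT of 9 months, and in WT it was 0.654 ± 0.232 at 3 months, 0.376 at 9 months and 0.279 ± 0.0179 at 18 months. Col4a1 to Col4a2 stayed between group means of 1.44 and 1.59.

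Over 18 exact two-sided permutation tests of these ratios none passed Benjamini-Hochberg adjustment, with a lowest adjusted p of 0.2. Groups of 3 against 3 cannot go below an exact p of 0.1. The lowest exact p was 0.0238 (adjusted 0.2), for Col1a1 to Col1a2 in p16-null DMD against WT, where the mean log2 ratio was 0.48 higher and all 6 libraries exceeded the 3 of WT.

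**Figure D5:**
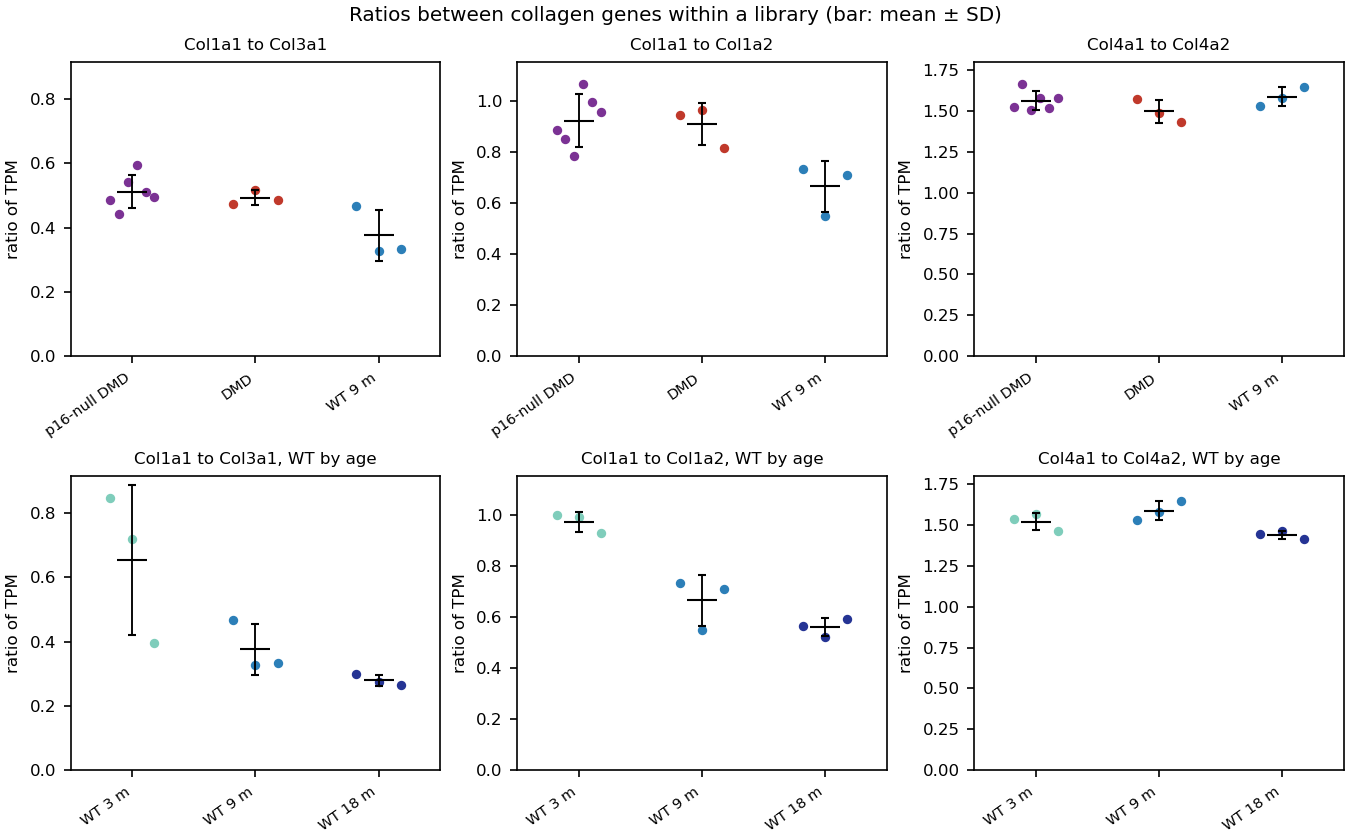
Ratio of TPM within each library (points) with the mean and SD (bars), for genotypes at 9 months (top) and WT by age (bottom). Col1a1 to Col1a2 lies between 0.785 and 1.07 in p16-null DMD, 0.816 and 0.967 in DMD and 0.551 and 0.735 in WT of 9 months, while Col4a1 to Col4a2 is near the same value in all groups.

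Enzymes and chaperones that modify, fold and cross-link collagen rose with the collagen genes in dystrophic muscle. Of 31 tested, 25 rose and 2 fell in p16-null DMD (median log2 fold change 1.27) and 22 rose and 2 fell in DMD (median 1.29), read against the shares of all genes above. In DMD, Loxl1, a cross-linking enzyme, rose by 3.29 ± 0.27 and its relative Loxl2 by 1.80 ± 0.20. P4ha3, a subunit of prolyl hydroxylase, rose by 5.22 ± 0.52, Fkbp10, a collagen chaperone, by 2.46 ± 0.25, Pcolce, which speeds the trimming of procollagen, by 1.92 ± 0.21, and Ppib, a folding enzyme of the endoplasmic reticulum, by 1.35 ± 0.15. All passed in p16-null DMD too.

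Receptors and genes of breakdown, a list that holds enzymes and their inhibitors, rose as well. Of all genes, 27.5% rose in p16-null DMD and 26.4% in DMD. Of 8 tested collagen receptors, 6 rose in p16-null DMD and 5 in DMD, and none fell. With a fold of at least 2, called receptors numbered 3 in p16-null DMD and 2 in DMD. Mrc2, which takes up cleaved collagen, rose by 1.61 ± 0.18 in DMD, Itga10, an integrin subunit, by 2.57 ± 0.56, the common subunit Itgb1 by 0.90 ± 0.15 and the kinase receptor Ddr2 by 0.87 ± 0.23. Of 9 tested genes of collagen breakdown, 8 rose in p16-null DMD and 7 in DMD. The gelatinase Mmp2 rose by 2.29 ± 0.19 in DMD, its activator Mmp14 by 2.31 ± 0.27, the collagen-cleaving cathepsin Ctsk by 2.48 ± 0.22, and Timp1, an inhibitor of these metalloproteinases, by 4.84 ± 0.44. No gene of the 3 lists passed between p16-null DMD and DMD.

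Between 18 and 3 months 24.1% of tested processing genes and 57.1% of tested breakdown genes passed, and no receptor did. Of all genes 19.4% passed, with 9.31% that rose and 10.1% that fell. Of 29 tested processing genes 3 rose and 4 fell, of 6 receptors none passed, and of 7 breakdown genes 2 rose and 2 fell. Among those that fell, Sparc, a collagen-binding matrix protein, changed by -1.35 ± 0.16 and Loxl2 by -1.21 ± 0.21, while Plod2, a lysyl hydroxylase, rose by 0.97 ± 0.16 and Tmem38b, an ion channel of the endoplasmic reticulum whose loss impairs collagen synthesis in humans, by 1.21 ± 0.14. The 2 breakdown genes that rose were the inhibitors Timp1, by 1.46 ± 0.24, and Timp3, by 0.40 ± 0.12. The 2 that fell were enzymes, with Ctsk at -0.70 ± 0.21 and Mmp2 at -0.63 ± 0.20. The breakdown count was 2 in 1 fit of all 18 libraries and ran from 1 to 5 over left-out libraries.

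Markers of other cells at 9 months are read against the shares of all genes in the same direction. In p16-null DMD 27.5% of all genes rose and 22.7% fell (50.2% called). In DMD 26.4% rose and 21.8% fell (48.3% called). Of 11 fibroblast genes, 9 rose in p16-null DMD and 9 in DMD, with sums of 5519.6 to 11668 CPM in p16-null DMD and 8070.5 to 9203 CPM in DMD, against 2924 to 3065 CPM in WT. All 12 macrophage genes rose in both genotypes, with sums of 1843 to 5153 CPM in p16-null DMD and 2657 to 4158 CPM in DMD, against 454 to 506 CPM in WT. Of 9 muscle fibre genes 7 fell in each genotype, with sums of 31194 to 57154 CPM in p16-null DMD and 33501 to 53898 CPM in DMD, against 123538 to 140470.0 CPM in WT. Of 8 tenocyte genes 4 rose in each genotype, with sums of 948 to 1385 CPM in p16-null DMD and 610.5 to 1258 CPM in DMD, against 254 to 496 CPM in WT. Of 10 endothelial genes 1 rose and 2 fell in p16-null DMD and 2 fell in DMD, with sums of 819 to 1099.8 CPM in p16-null DMD and 775 to 999.7 CPM in DMD, against 916 to 1067 CPM in WT. Of 10 smooth muscle and pericyte genes 1 rose and 2 fell in each genotype, with sums of 751 to 1069.6 CPM in p16-null DMD and 822 to 1039 CPM in DMD, against 1003 to 1095 CPM in WT. Of 8 Schwann cell genes 2 rose in each genotype, with sums of 134 to 355 CPM in p16-null DMD and 208 to 507 CPM in DMD, against 189 to 249 CPM in WT. Of 8 cartilage genes only Comp, which tendon also makes, and Sox9 had enough counts to be tested. The part of these cell types in the levels of the collagen genes was not tested.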

How the data were processed

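RSEM expected counts (estimated counts per gene, of which 4.5% were not whole) and TPM values were used as the authors deposited them, in 1 table each with a column for every library, and all per-sample columns were used. The submitters' processing notes name RSEM 1.3.3, STAR 2.7.10b, FastQC, Trimmomatic and the build mRatBN7.2; of strand setting and annotation release nothing is given in the sources used here. Per the labels, BGI made TruSeq libraries from total RNA of frozen muscle sections (RNeasy mini kit). Of the 30560 entries, 7162 had no symbol.

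Groups were taken from the labels. Rounded counts that passed filterByExpr, with TMM scaling, entered the quasi-likelihood test of edgeR 4.0.16 (R 4.3.3), in 1 fit of the 12 libraries of 9 months, 1 of WT at 18 and 3 months, and 1 of all WT libraries for comparisons with WT at 9 months. P-values were adjusted by Benjamini-Hochberg over all genes tested, and an adjusted p under 0.05 counts as called. The SE of a log2 fold change was taken from its F statistic (change over the root of F). Ratios of TPM were tested by exact permutation over libraries. For a group with 0 counts a floor of 3 counts, for the group as a whole, gives the bound of the fold, and counting intervals are at 95%. The steps were tested on simulated data.

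The collagen genes, the gene lists and the tests were chosen with earlier results of these data known. Values are given for Col1a1, Col1a2, Col3a1, Col4a1, Col4a2, for up to 4 members of a class with the smallest p in any comparison, and for called members that went against the majority; other members were named after their values were seen. From a pathway list up to 6 genes with the smallest p in DMD against WT and up to 4 in WT at 18 against 3 months could be named. Lists lacked Crtap, Pcolce2, Gp6, Timp2, Myh1, Ly6a, Flt1, Cldn5 and Chrng, which had no entry. Alternatives were DESeq2 1.42.0, RLE scaling, library totals, no filter, a filter of 5 CPM in 3 libraries, limma 3.58.1 on log2 (TPM + 1) and on log2 (TPM + 0.1), other sets of libraries in the fit, the replicate number as a block, leaving out single libraries, and calls limited to a fold of 2 or more. Promoters came from RefSeq (GRCr8) by symbol, and 32 of 41 members matched. Figures were drawn with matplotlib 3.10.9.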

Additional observations from a re-analysis of the deposited data

Results flagged for a closer look

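Col9a2, a chain of cartilage fibrils that did not pass the filter on low counts, was at 0.584 CPM in p16-null DMD replicate 6, against 0 to 0.215 CPM in the other libraries of that group. It stood apart by Dixon's test in the group of 6 libraries, the only one of 40 members tested in this way, and chance alone marks about 5% of such groups.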

How the results depend on the processing

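Of 4197 values of single collagen genes under the alternatives, 3988 kept their direction and their side of the threshold, 170 lost a call, 39 gained one and none reversed. The counts for p16-null DMD and DMD against WT stayed within 1.5 times for the collagen genes in each alternative run. With the replicate number as a block they were 31 and 29, against 32 and 29 without it, and 14, 14 and 9 in the 3 comparisons of ages, against 14, 14 and 10; the numbers did not pair the libraries, since same-numbered libraries had correlations of -0.307 to 0.156.
With a fold of at least 2, called genes numbered 2 receptors in DMD and 3 in p16-null DMD against WT. At 18 against 3 months they were 9 collagens (7 lower), 4 processing genes and 1 breakdown gene. At 9 against 3 months they were 4 collagens (4 lower), 3 processing and 0 breakdown genes, and at 18 against 9 months 4 collagens (3 higher, 1 lower), 3 processing genes and 0 receptors. DESeq2 called 1 collagen lower (Col6a4) between p16-null DMD and DMD. Library totals gave 4 collagens higher, 1 receptor and 2 breakdown genes at 18 against 3 months, and 2 collagens lower, 16 processing and 3 breakdown genes at 18 against 9 months. With limma on TPM (either pseudocount) they were 9 collagens (6 lower) and 2 receptors at 18 against 3 months, 2 collagens (2 lower), 1 processing and 0 breakdown genes at 9 against 3 months, and 6 collagens (0 lower) and 2 breakdown genes at 18 against 9 months.
Without a filter 1 collagen was higher, with 11 processing and 5 breakdown genes, at 9 against 3 months, and 2 breakdown genes at 18 against 9 months. A fit of only 2 groups called 4 processing genes at 9 against 3 months. In 1 fit of 18 libraries there were 2 breakdown genes at 18 against 3 months, 3 collagens (3 lower), 3 processing and 1 breakdown genes at 9 against 3 months, and 2 processing genes and 0 receptors at 18 against 9 months. The cause was not tested.
Leaving out 1 library gave 0 to 1 collagens between p16-null DMD and DMD (0 to 1 lower). At 18 against 3 months it gave 1 to 5 breakdown genes. At 9 against 3 months it gave 5 to 14 collagens (5 to 14 lower), 3 to 6 processing and 1 to 5 breakdown genes. At 18 against 9 months it gave 6 to 10 collagens (1 to 4 lower), 3 to 8 processing genes and 0 to 2 receptors. Depth limits members with low counts, such as Col6a4 and Col26a1, and groups of 3 libraries limit the precision.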
